A study of Mus musculus with 24 samples.

Results

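The genes described here are 10 regulators of hepatic lipid handling. They are the nuclear receptors Ppara, Ppard and Pparg, their partner Rxra and the coactivators Ppargc1a and Ppargc1b. The others are the membrane-bound factor Creb3l3 (CREBH) and the lipins Lpin1, Lpin2 and Lpin3. All 10 were found by name among 37325 gene names on the array, and all were among the 21495 genes that passed the filter for signal above background. Each was read at its main probe, the one with the highest mean raw log2 signal over the 24 arrays, and its other probes served as a check. Probe positions are those of the array's design in mm9, whose gene annotation was not used here. Liver mRNA was measured in male mice aged 12 weeks, 1 array per mouse, with 6 mice in each of 4 groups. LWT mice carried floxed Pik3ca without Cre, and LKO mice carried floxed Pik3ca together with Cre under the albumin promoter, which acts in hepatocytes, so that other liver cells keep the gene. Pik3ca encodes p110α, a catalytic subunit of the phosphoinositide 3-kinase that relays the insulin signal. LWT_Fed and LKO_Fed mice had chow, and LWT_Fasted and LKO_Fasted mice went without food for 24 h, with all livers collected at ZT 16, in the dark phase. The comparisons ask how these regulators respond to fasting when hepatocytes have or lack p110α.

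PPARα is a receptor for fatty acids that binds DNA as a pair with RXRα and drives fatty acid oxidation and ketone body production in the fasted liver. PPARγ favours lipid storage and is most abundant in fat cells, and PPARδ is expressed in many tissues. PGC-1α and PGC-1β, the products of Ppargc1a and Ppargc1b, carry no DNA-binding activity of their own and are recruited by such receptors. CREBH is held in the endoplasmic reticulum membrane, is cut free by Golgi proteases during fasting and cooperates with PPARα at genes such as Fgf21. Lipins convert phosphatidic acid to diacylglycerol on the way to triglyceride, and lipin 1 also acts in the nucleus as a coactivator of PPARα with PGC-1α.

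Because several of these genes rose together on fasting, the stretch of 250 bases before a RefSeq start (GRCm38.p6) is shown for the 5 members that rose in fasted LWT mice and had a match to one of 6 short motifs. Capitals mark the matches on either strand, and where a gene had several starts the one with the most matches is shown.
Ppara (chr15:85735526-85735775, plus strand): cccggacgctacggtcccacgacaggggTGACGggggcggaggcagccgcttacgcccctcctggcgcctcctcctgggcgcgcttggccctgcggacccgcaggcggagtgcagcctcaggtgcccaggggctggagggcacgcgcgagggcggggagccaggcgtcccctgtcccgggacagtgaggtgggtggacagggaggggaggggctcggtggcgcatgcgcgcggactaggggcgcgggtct
Ppargc1a (chr5:51567726-51567975, minus strand): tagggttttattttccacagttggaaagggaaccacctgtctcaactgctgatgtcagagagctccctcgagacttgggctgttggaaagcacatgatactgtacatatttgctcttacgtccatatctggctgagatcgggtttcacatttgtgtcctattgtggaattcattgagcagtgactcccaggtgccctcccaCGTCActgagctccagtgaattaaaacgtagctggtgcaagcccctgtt
Creb3l3 (chr10:81092592-81092841, minus strand): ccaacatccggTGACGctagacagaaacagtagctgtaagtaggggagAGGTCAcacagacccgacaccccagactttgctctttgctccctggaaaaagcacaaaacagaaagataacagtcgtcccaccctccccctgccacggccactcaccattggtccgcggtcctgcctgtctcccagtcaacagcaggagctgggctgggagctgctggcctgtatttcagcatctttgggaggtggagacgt
Lpin1 (chr12:16610967-16611216, minus strand): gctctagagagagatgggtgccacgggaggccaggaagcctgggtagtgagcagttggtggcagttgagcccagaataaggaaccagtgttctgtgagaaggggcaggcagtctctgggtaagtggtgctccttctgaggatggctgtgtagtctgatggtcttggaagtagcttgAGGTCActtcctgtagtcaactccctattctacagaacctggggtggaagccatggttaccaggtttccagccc
Lpin2 (chr17:71183282-71183531, plus strand): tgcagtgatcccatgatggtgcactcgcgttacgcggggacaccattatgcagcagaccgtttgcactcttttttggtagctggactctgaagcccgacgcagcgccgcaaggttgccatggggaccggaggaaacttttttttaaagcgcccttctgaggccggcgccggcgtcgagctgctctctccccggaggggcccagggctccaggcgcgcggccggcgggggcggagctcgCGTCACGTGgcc

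The hormone receptor motif AGGTCA began 74 bases before the Lpin1 start and 202 bases before the Creb3l3 start. It also lay before a Rxra start and both Pparg starts that held a match, and it is found before 14% of the 32851 starts searched. The letters TGACG, which open the cyclic AMP response element, began 239 bases before the Creb3l3 start, 222 before the Ppara start and, on the opposite strand, 49 before the Ppargc1a start and 12 before the Lpin2 start, against 17.8% of all starts. The Lpin2 match overlaps the E-box CACGTG, which 6.02% of starts hold. The forkhead letters TGTTTAC, present before 3.17% of starts, occurred only before another Lpin2 start, among 16 starts of 9 members. The full element TGACGTCA, which contains TGACG, and a direct repeat of AGGTCA with 1 base between the copies, held by 1.55% and 0.0335% of starts, had no match before any of the 16 starts. Such matches are a description of the letters in these windows and say nothing of whether a factor binds there. No start of Ppard or Lpin3 held a match.

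On each array 54.7% to 63.0% of spots were well above background and no spot was saturated. The arrays lay on 3 slides, each with 2 arrays of every group, and no member passed a test for slide. Array weights, which fall where an array departs from its group over many genes, were lowest for LWT_Fed replicate 3 (0.32) and LKO_Fasted replicate 4 (0.355) and reached 1.74. The 8 hepatocyte markers were all measured. Their summed log2 level was 20.83 to 20.89 in LWT_Fed and 20.85 to 20.90 in LWT_Fasted arrays. It was 20.81 to 20.86 in LKO_Fed and lowest in LKO_Fasted arrays, at 20.74 to 20.80. Of 5 pancreas markers 3 were above background on no array. Of the 2 tested by limma, Cela2a was higher in LKO, by 0.825 (adjusted p = 0.00306) between fed and 0.632 (adjusted p = 0.021) between fasted genotypes. Ctrb1 was lower there, at -0.356 (adjusted p = 0.0154) and -0.307 (adjusted p = 0.039). The probe of the targeted gene Pik3ca was not lower in arrays labelled LKO, at 12.30 to 13.02 in LKO_Fed against 11.71 to 12.25 in LWT_Fed and at 12.03 to 12.50 in LKO_Fasted against 12.05 to 12.42 in LWT_Fasted. By the fit it was higher in LKO_Fed than in LWT_Fed arrays by 0.58 (adjusted p = 0.00147), and the fasted difference was -0.02 (adjusted p = 0.93). Its place relative to the deleted exons was not examined, and directions between genotypes are therefore given between arrays as labelled.

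In LWT mice 6 members rose (Ppara, Ppargc1a, Ppargc1b, Creb3l3, Lpin1 and Lpin2) and 2 fell (Ppard and Lpin3), where passing means an adjusted p of at most 0.05 in limma's test. Of all genes tested, 41.5% passed in that comparison, 19.9% higher and 21.7% lower. In LKO mice 4 members rose (Ppara, Ppargc1b, Creb3l3 and Lpin2) and Ppard fell, against a background of 41.5%, 19.7% higher and 21.8% lower. Fold changes over 1.5 were held by 7 of the members that passed in LWT (background 10%) and by all 5 in LKO (background 12.8%). Fed and fasted mice did not overlap for 6 members in LWT and for 5 in LKO, against 21.6% and 22.1% of all genes, and no member was without overlap between genotypes, against 8.63% of genes in fed and 8.67% in fasted mice. Pparg and Creb3l3 were lower in LKO_Fed than in LWT_Fed arrays and no member was higher, where 16.4% of all genes passed, 8.81% higher and 7.6% lower. Pparg also had a fold over 1.5 (background 3.83%). Lpin1 was lower in LKO_Fasted than in LWT_Fasted arrays, by more than 1.5-fold, where 20.6% of genes passed, 10% higher and 10.6% lower, and 4.06% with that fold. The fasting change of Creb3l3 and Lpin3 was higher in LKO than in LWT, where 7.97% of genes passed, 4.11% higher and 3.86% lower; none of the members but 3.09% of genes had a difference over 1.5-fold. The median log2 fold change of the 10 members was 0.74 for fasting in LWT and 0.48 in LKO, against -0.01 and -0.02 over all genes.

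**Figure D1:**
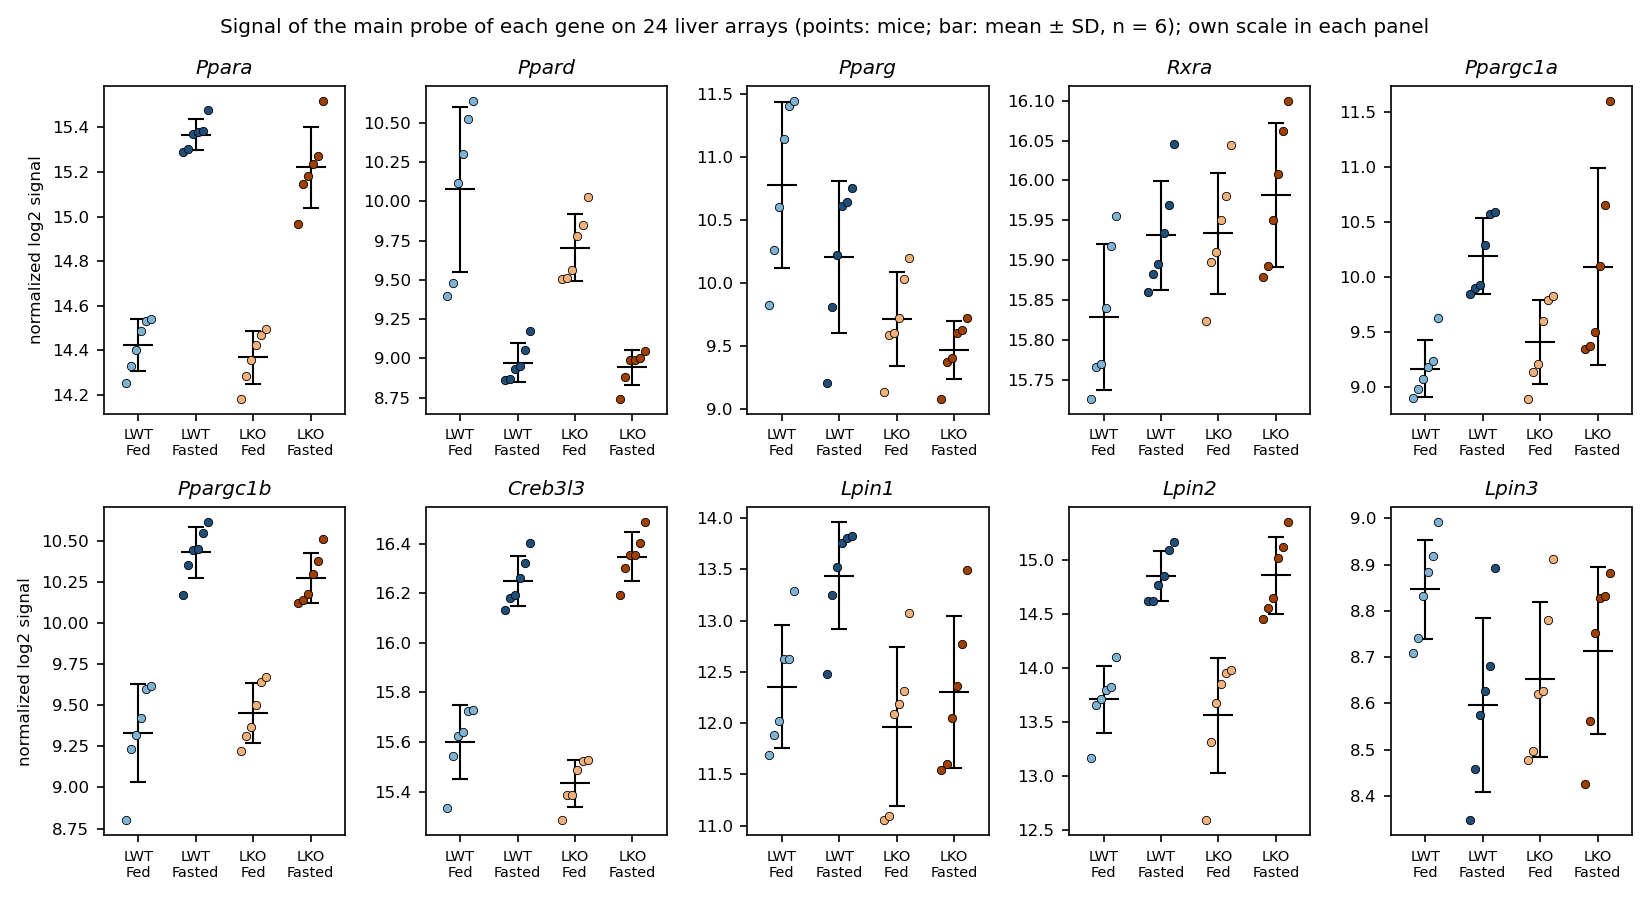
Normalized log2 signal of the main probe of each member, a panel per gene with its own axis, in LWT_Fed, LWT_Fasted, LKO_Fed and LKO_Fasted mice; points are single mice and bars give the mean ± SD (n = 6). Ppara, Ppargc1b, Creb3l3 and Lpin2 show fasted mice above all fed mice of the same genotype, whereas Rxra spans 15.73 to 16.10 over all 24 arrays.

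Ppara (NM_011144), whose main probe lies at chr15:85632110-85632169 in mm9, showed the tightest response of the 3 receptors. Its log2 signal ran from 14.26 through a median of 14.45 to 14.54 in LWT_Fed and from 15.29 through 15.38 to 15.48 in LWT_Fasted mice. In LKO_Fed mice it ran from 14.18 through 14.39 to 14.50, and in LKO_Fasted mice from 14.97 through 15.21 to 15.52. All fasted mice thus lay above all fed mice in both genotypes. The log2 fold change on fasting was 0.89 in LWT (SE 0.0622, adjusted p = 2.96e-10) and 0.87 in LKO (SE 0.0687, adjusted p = 1.44e-09), or 1.86-fold and 1.83-fold. The difference between these changes was -0.02, with a 95% interval of -0.22 to 0.17 (adjusted p = 0.917). Signals of bulk liver cannot tell more RNA per cell from more cells of a type. A second Ppara probe, at chr15:85637193-85637252, gave 1.05 and 1.02.

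Ppard (NM_011145; chr17:28438298-28438357) moved the other way. Its signal ran from 9.40 through a median of 10.21 to 10.64 in LWT_Fed and from 8.86 through 8.94 to 9.18 in LWT_Fasted mice. LKO_Fed mice spanned 9.50 to 10.03 with a median of 9.67, and LKO_Fasted mice 8.74 to 9.05 with a median of 8.99. Fed and fasted mice did not overlap in either genotype. Fasting changed Ppard by -0.95 log2 units in LWT (SE 0.162, adjusted p = 6.18e-05), 1.94-fold lower, and -0.79 in LKO (SE 0.18, adjusted p = 0.00115), 1.73-fold lower, and these changes differed by 0.16 (95% interval -0.34 to 0.66, adjusted p = 0.741). Among 6 markers of hepatic stellate cells, 2 fell on fasting in LWT and 3 in LKO, where 21.7% and 21.8% of all genes fell. The list medians were -0.18 in LWT and -0.35 in LKO. The summed log2 level of these markers was 12.50 to 12.92 in LWT_Fed and 12.06 to 12.32 in LWT_Fasted arrays. It was 12.40 to 12.83 in LKO_Fed and 11.81 to 12.29 in LKO_Fasted arrays. Each of these markers was above background. Their part in the Ppard result was not tested.

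Pparg (NM_011146; chr6:115440213-115440272) varied more between mice and was the member with the largest difference between fed genotypes. LWT_Fed mice spanned 9.83 to 11.45 with a median of 10.88, and LKO_Fed mice 9.14 to 10.20 with a median of 9.66. In the fasted state LWT mice spanned 9.21 to 10.75 (median 10.42) and LKO mice 9.08 to 9.72 (median 9.50). The genotypes overlapped in both states. LKO_Fed arrays lay 2.03-fold below LWT_Fed arrays, at -1.02 (SE 0.263, adjusted p = 0.0107), which lost the call without LWT_Fed replicate 5 (-0.80, adjusted p = 0.0667). In fasted mice the difference was -0.66 (95% interval -1.24 to -0.08, adjusted p = 0.102), and it passed without LWT_Fasted replicate 3 (-0.90, adjusted p = 0.0262). On fasting the value was -0.50 in LWT (adjusted p = 0.125), while in LKO it was -0.15 (adjusted p = 0.721). The LWT change passed when LWT_Fasted replicate 1 or LWT_Fed replicate 2 was left out, at -0.69 (adjusted p = 0.0297) and -0.64 (adjusted p = 0.0492), and it shrank to -0.28 without LWT_Fasted replicate 3 and to -0.26 without LWT_Fed replicate 5 (adjusted p = 0.483). A second Pparg probe was not above background on any array.

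Among markers of fat tissue 1 passed between the fed genotypes. Of the 6 listed, 5 were tested and all were above background on some array. The median of the list was -0.13 between fed and -0.18 between fasted genotypes, against -0.01 and -0.004 over all genes. The adipokine gene Cfd was lower in LKO_Fed than in LWT_Fed arrays by -2.76 (adjusted p = 0.0123) and lower in LKO_Fasted than in LWT_Fasted arrays by -3.00 (adjusted p = 0.008), where Car3 was lower too, at -1.84 (adjusted p = 0.000134). The summed log2 level of the list was 17.02 to 17.47 in LWT_Fed, 16.32 to 17.19 in LKO_Fed, 14.77 to 16.69 in LWT_Fasted and 13.18 to 14.72 in LKO_Fasted arrays. Car3, which hepatocytes express too, fell on fasting by 1.36 in LWT and by 2.63 in LKO on the log2 scale. None of the 7 Kupffer cell markers passed between fed genotypes by limma, with 1 at an unadjusted p under 0.05 and a list median of -0.37, and their summed level was 14.56 to 15.02 in LWT_Fed and 14.17 to 14.98 in LKO_Fed arrays. Of 6 endothelial markers 2 were lower in LKO_Fed than in LWT_Fed arrays, Lyve1 at -0.88 (adjusted p = 0.0405) and Tek at -0.51 (adjusted p = 0.039), both named after their values were seen. The median of that list was -0.23, and its summed level was 13.05 to 13.39 in LWT_Fed and 12.88 to 13.47 in LKO_Fed arrays. The part of these cells in the Pparg result was not tested.

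Rxra (NM_011305; chr2:27618345-27618404), the obligate partner, changed little. Its signal ran from 15.73 to 15.96 in LWT_Fed, from 15.86 to 16.05 in LWT_Fasted, from 15.82 to 16.05 in LKO_Fed and from 15.88 to 16.10 in LKO_Fasted mice, with medians of 15.80, 15.91, 15.93 and 15.98. The log2 fold change on fasting was 0.07 in LWT (95% interval -0.04 to 0.18, adjusted p = 0.286) and 0.06 in LKO (95% interval -0.06 to 0.18, adjusted p = 0.416). The LWT value passed under 2 alternatives that scale each array by its 75th percentile, at 0.14 (adjusted p = 0.0435) and 0.15 (adjusted p = 0.0398). The genotype differences were 0.09 in fed mice and 0.08 in fasted mice, with 95% intervals of -0.02 to 0.20 and -0.03 to 0.20. A second probe gave differences of 0.02 at most for fasting and 0.09 for genotype.

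**Figure D2:**
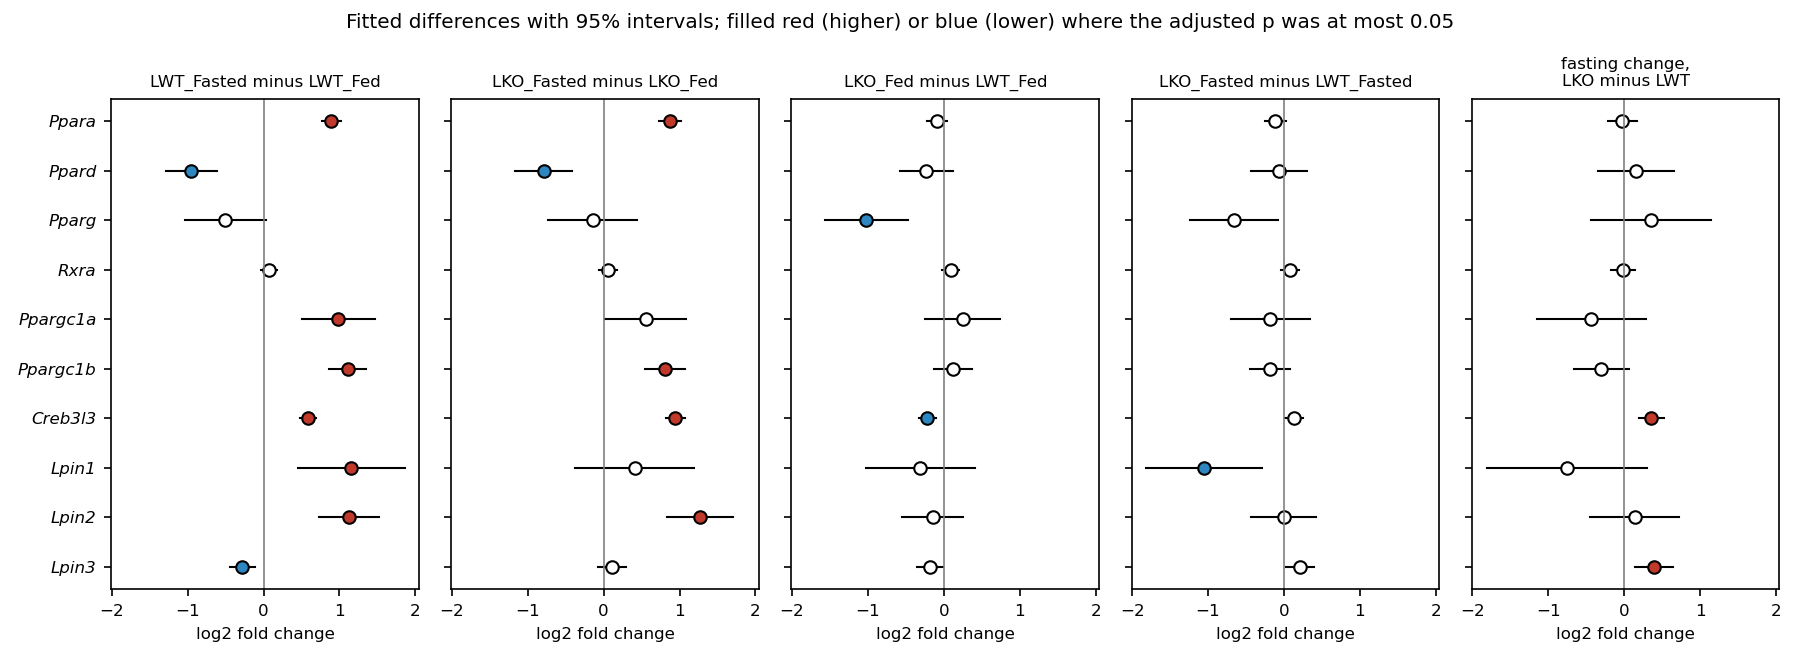
Fitted log2 fold change of each member (rows) in the 2 fasting comparisons, the 2 genotype comparisons and the difference between the fasting changes (columns); points are estimates, lines 95% intervals, and filled points passed at an adjusted p of at most 0.05, red when higher and blue when lower. The fasting columns hold 8 and 5 filled points and the genotype columns 2 and 1.

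Target genes of PPARα rose almost without exception. Of 25 listed and measured, 24 rose on fasting in LWT and 24 in LKO, with median log2 fold changes of 1.27 and 1.95 against -0.01 and -0.02 for all genes. The largest rise in both was that of Cyp4a14, a fatty acid omega-hydroxylase, at 5.49 (adjusted p = 3.79e-11) and 5.36 (adjusted p = 1.57e-10), with 5 of 6 arrays above background in each fed group. In fed mice 5 targets were lower in arrays labelled LKO, led by the hormone gene Fgf21 at -1.19 (adjusted p = 0.00306). In fasted mice 12 were higher, led by the peroxisomal enzyme gene Ehhadh at 1.34 (adjusted p = 6.55e-05). For 15 the fasting change was higher in LKO, led by Fgf21 at 2.05 (adjusted p = 0.00202). Of all genes, 7.6% were lower between fed genotypes, 10% were higher between fasted genotypes and 4.11% had a higher fasting change in LKO. Ppara itself did not pass in any of these 3 comparisons, as given above for the fasting change, with -0.09 (adjusted p = 0.359) between fed and -0.11 (adjusted p = 0.256) between fasted genotypes.

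Of 8 PPARγ target genes 7 were measured, and 4 of them, Cidec, Mogat1, Cd36 and Plin4 (named after their values were seen), were lower in LKO_Fed than in LWT_Fed arrays (median of the list -0.93 against -0.01 for all genes). Of all genes, 7.6% were lower in that comparison. The largest fall was that of Cidec, a lipid droplet protein gene, at -1.62 (adjusted p = 0.000216). Fasting raised Cidec by 4.35 in LWT (adjusted p = 1.43e-11) and, by limma, by 7.47 in LKO (adjusted p = 2.38e-14), the largest rise in this list and also among CREBH targets, where it is listed too. In fasted mice 3 targets were higher and 3 lower in LKO, against 10% and 10.6% of all genes. Cidec, 2.83-fold higher (adjusted p = 0.000354), and the perilipin gene Plin4, at -1.87 (adjusted p = 1.91e-06), were at the ends. The fasting change of Cidec was larger in LKO by 3.12 (adjusted p = 3.7e-05) and that of Plin4 was lower in LKO, at -1.23 (adjusted p = 0.0091).

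Of 15 partners and coregulators of PPAR and RXR, 9 rose on fasting in LWT, and 8 rose and 2 fell in LKO. The shares of all genes were 19.9% higher in LWT, and 19.7% higher and 21.8% lower in LKO. Tbl1xr1, which exchanges corepressors for coactivators, had the largest rise in both, 0.65 (adjusted p = 3.09e-07) and 0.98 (adjusted p = 2.96e-09). Between fed genotypes 4 were higher in LKO, where 8.81% of all genes were, led by the acetyltransferase gene Crebbp at 0.62 (adjusted p = 0.0155). Between fasted genotypes 2 were higher and 1 lower, near the shares of all genes (10% and 10.6%), with Pprc1, a relative of PGC-1, at 0.71 (adjusted p = 0.00872) and the deacetylase gene Hdac3 at -0.31 (adjusted p = 0.00438). List medians for fasting were 0.27 in LWT and 0.27 in LKO.

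Ppargc1a (NM_008904; chr5:51848928-51848987, minus strand) rose on fasting in LWT mice. LWT_Fed mice spanned 8.90 to 9.63 with a median of 9.13, and LWT_Fasted mice 9.85 to 10.59 with a median of 10.11, without overlap. LKO_Fed mice spanned 8.90 to 9.83 (median 9.41) and LKO_Fasted mice 9.35 to 11.60 (median 9.80), where replicate 4, an array of low weight, was the highest. The log2 fold change was 0.99 in LWT (SE 0.233, adjusted p = 0.0016) and 0.56 in LKO (SE 0.257, adjusted p = 0.089), and the difference between them, -0.43, had a 95% interval of -1.15 to 0.29 (adjusted p = 0.493). The LKO change passed without LKO_Fasted replicate 5 (0.72, adjusted p = 0.0339) and at the second probe, chr5:51849419-51849478, where it was 0.70 (adjusted p = 0.0261) beside 0.78 in LWT (adjusted p = 0.00719). The genotype difference at the main probe was 0.25 in fed mice (95% interval -0.24 to 0.75, adjusted p = 0.523) and -0.18 in fasted mice (95% interval -0.70 to 0.35, adjusted p = 0.674). Leaving out 1 array moved the first between 0.15 (LKO_Fed replicate 5) and 0.41 (LKO_Fed replicate 1) and the second between -0.32 (LKO_Fasted replicate 1) and -0.01 (LKO_Fasted replicate 5).

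Ppargc1b (NM_133249; chr18:61458252-61458311, minus strand) rose in both genotypes with little spread. LWT_Fed mice ran from 8.80 through a median of 9.37 to 9.61 and LWT_Fasted mice from 10.17 through 10.45 to 10.61. LKO_Fed mice ran from 9.22 through 9.43 to 9.67 and LKO_Fasted mice from 10.12 through 10.24 to 10.51. Fed and fasted mice did not overlap. Fasting raised it by 1.11 log2 units in LWT (SE 0.117, adjusted p = 1.44e-07) and by 0.81 in LKO (SE 0.13, adjusted p = 3.01e-05), 2.15-fold and 1.75-fold. The difference, -0.30, did not pass (95% interval -0.66 to 0.06, adjusted p = 0.324), and at the second probe it was -0.44 (adjusted p = 0.103).

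Among 14 partners and targets of PGC-1, 10 rose on fasting in LWT, and 10 rose and 1 fell in LKO, with medians of 0.30 and 0.30. Among all genes 19.9% rose in LWT, and 19.7% rose and 21.8% fell in LKO. Pck1, which encodes a rate-limiting enzyme of gluconeogenesis, had the largest rise, 1.59 in LWT (adjusted p = 1.49e-06), against 0.79 in LKO (adjusted p = 0.00633), and it was 0.81 higher in LKO_Fed than in LWT_Fed arrays (adjusted p = 0.00992), where it led the 2 genes that were higher. The antioxidant gene Sod2 fell in LKO by 0.21 on the log2 scale (adjusted p = 0.0145). Foxo1, a forkhead factor restrained by insulin, rose in LWT by 0.71 (adjusted p = 2.04e-05) and led the 2 genes that were lower in LKO_Fasted than in LWT_Fasted arrays, at -0.63 (adjusted p = 0.000766). It was also the one gene of the list whose difference between fasting changes, LKO minus LWT, passed, at -0.67 (adjusted p = 0.0166), while that of Pck1 was -0.80 and did not pass (adjusted p = 0.105).

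Creb3l3 (NM_145365; chr10:80547080-80547139, minus strand) was the member whose fasting change differed most clearly between genotypes. LWT_Fed mice ran from 15.34 through a median of 15.63 to 15.73 and LWT_Fasted mice from 16.13 through 16.23 to 16.40. LKO_Fed mice ran from 15.29 through 15.44 to 15.53 and LKO_Fasted mice from 16.19 through 16.35 to 16.49. LKO mice thus tended to lie lower when fed and at or above LWT mice when fasted, with overlap between genotypes in both states and none between fed and fasted mice. The log2 fold change on fasting was 0.59 in LWT (SE 0.0529, adjusted p = 1.4e-08) and 0.94 in LKO (SE 0.0585, adjusted p = 4.74e-11), 1.5-fold and 1.92-fold. The difference between them was 0.36 (SE 0.0789, 95% interval 0.19 to 0.52, adjusted p = 0.00838). LKO_Fed arrays were lower than LWT_Fed arrays by -0.22 (SE 0.0541, adjusted p = 0.00764), and the fasted difference was 0.14 (adjusted p = 0.105). Within slides the interaction was 0.003, 0.42 and 0.38, and the fed difference was 0.04, -0.25 and -0.29, so neither was seen on slide 1, which held LWT_Fed replicates 3 and 5. Without array weights the interaction was 0.27 (adjusted p = 0.0988) and the fed difference -0.17 (adjusted p = 0.098), and neither passed. With processed signal the fed difference was -0.15 and did not pass either (adjusted p = 0.091).

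Of 9 CREBH target genes, 5 rose on fasting in LWT, and 5 rose and 1 fell in LKO. The shares of all genes were 19.9% higher in LWT, and 19.7% higher and 21.8% lower in LKO. Cidec led the rises, as given above, and the acute-phase gene Crp was the one that fell, by 0.40 on the log2 scale (adjusted p = 0.0055). In fed mice 4 targets were lower and 1 was higher in arrays labelled LKO, with the apolipoprotein genes Apoa4 at -1.91 (adjusted p = 1.44e-07) and Apoa1 at 0.28 (adjusted p = 0.0296) at the ends. In fasted mice 3 were higher in LKO, and 4 had a higher fasting change there. Of all genes, 7.6% were lower and 8.81% higher between fed genotypes. Between fasted genotypes 10% were higher, and 4.11% had a higher fasting change in LKO. The median of the list was -0.35 between fed genotypes and 0.30 for the difference between fasting changes, against -0.01 and -0.001 over all genes. Fgf21 and Cidec stand in this list and in a PPAR list, so these counts are not independent.

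Of the 7 genes for CREBH processing and the CREB3 family, 4 rose and 1 fell on fasting in LWT, and 4 rose and 2 fell in LKO. For all genes these shares were 19.9% and 21.7% in LWT and 19.7% and 21.8% in LKO. Atf6, an endoplasmic reticulum stress sensor cut by the same proteases, rose by 0.33 in LWT (adjusted p = 0.000305), and Creb3 rose most in LKO, by 0.63 (adjusted p = 4.09e-08). Creb3l2 fell in both, by 0.71 (adjusted p = 0.000196) and by 0.49 (adjusted p = 0.011) on the log2 scale. Creb3 was also 0.38 higher in LKO_Fasted than in LWT_Fasted arrays (adjusted p = 0.00018), and its fasting change was larger in LKO by 0.42 (adjusted p = 0.00458), the larger of 2 in the list. In the CREB arm of the fasting response, through which glucagon and cyclic AMP act, 2 of 9 genes rose and 2 fell in LWT, near the 19.9% and 21.7% of all genes, and 2 rose and 4 fell in LKO, with medians of -0.04 and 0.03. The CREB coactivator gene Crtc2 led in LWT at 0.71 (adjusted p = 1.72e-09) and Crem in LKO at 0.68 (adjusted p = 1.05e-05). The kinase subunit gene Prkaca fell by 0.32 in LWT (adjusted p = 0.000336) and the phosphodiesterase gene Pde4b by 0.66 in LKO (adjusted p = 0.00454). Pde4b was 0.73 higher in LKO_Fed than in LWT_Fed arrays (adjusted p = 0.00384). Between fasted genotypes Crem was 0.58 higher (adjusted p = 0.000267) and Prkaca lower in LKO, at -0.24 (adjusted p = 0.0161).

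Among the lipins, Lpin1 (NM_001130412; chr12:16543023-16543082, minus strand) spread widely within every group. LWT_Fed mice ran from 11.69 through a median of 12.32 to 13.29, with replicate 3 the highest, and LWT_Fasted mice from 12.48 through 13.64 to 13.82. LKO_Fed mice ran from 11.05 through 12.13 to 13.07 and LKO_Fasted mice from 11.55 through 12.21 to 13.49. Fed and fasted mice overlapped in both genotypes. Fasting raised Lpin1 by 1.16 in LWT (SE 0.34, adjusted p = 0.00887), 2.23-fold, and gave 0.41 in LKO (SE 0.376, 95% interval -0.37 to 1.19, adjusted p = 0.413). The LKO value ran from 0.15 without LKO_Fed replicate 1 to 0.62 without LKO_Fed replicate 6, and was 0.17 without LKO_Fed replicate 2 and 0.20 without LKO_Fasted replicate 1. The difference between the changes was -0.75 (95% interval -1.80 to 0.30, adjusted p = 0.403), so they were not shown to differ. LKO_Fasted arrays were lower than LWT_Fasted arrays by -1.06 (SE 0.369, adjusted p = 0.0475), 2.08-fold, and within slides by -1.80, -1.12 and -0.48. This call rests close to the threshold and was lost in 13 of 24 fits that left out an array, where the adjusted p ran from 0.0117 to 0.136. The 13 were LWT_Fed replicates 1, 4 and 5, LWT_Fasted replicates 2, 3, 5 and 6, LKO_Fed replicates 3 and 5 and LKO_Fasted replicates 2, 3, 4 and 6.

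The other Lpin1 probes differed in response. The probe at chr12:16543695-16543754 followed the main probe, with 1.08 on fasting in LWT (adjusted p = 0.0131) and -1.13 between fasted genotypes (adjusted p = 0.0337). The probe at chr12:16571310-16571369 gave 0.51 (adjusted p = 0.0718) and -0.63 (adjusted p = 0.0722), and that at chr12:16587593-16587652 gave -0.05 (adjusted p = 0.866) and -0.56 (adjusted p = 0.0737). All 4 probes were thus lower in LKO_Fasted than in LWT_Fasted arrays, 2 of them past the threshold, while the sign of the fasting change in LWT was shared by 3.

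Lpin2 (NM_001164885; chr17:71598998-71599057) rose by similar amounts in both genotypes. LWT_Fed mice ran from 13.17 through a median of 13.76 to 14.11 and LWT_Fasted mice from 14.62 through 14.81 to 15.17. LKO_Fed mice ran from 12.59 through 13.76 to 13.98, with replicate 1 the lowest, and LKO_Fasted mice from 14.46 through 14.84 to 15.35. All fasted mice lay above all fed mice of their genotype. The rise was 1.13 log2 units in LWT (SE 0.189, adjusted p = 5.19e-05) and 1.27 in LKO (SE 0.209, adjusted p = 4.1e-05), 2.19-fold and 2.41-fold, and the difference between them was 0.14 (95% interval -0.44 to 0.73, adjusted p = 0.811). Of 5 further probes, 3 also rose in both genotypes, by 0.66 to 1.35 in LWT and by 0.63 to 1.71 in LKO. The other 2 gave 0.27 and -0.02 in LWT, and 0.20 and 0.22 in LKO, and passed in neither.

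Lpin3 (NM_022883; chr2:160731469-160731528) was the one lipin to fall. LWT_Fed mice ran from 8.71 through a median of 8.86 to 8.99 and LWT_Fasted mice from 8.35 through 8.60 to 8.89, and LKO_Fed mice from 8.48 through 8.62 to 8.91 and LKO_Fasted mice from 8.43 through 8.79 to 8.88. The groups overlapped throughout, and the differences were small. On fasting the log2 fold change was -0.28 in LWT (SE 0.0803, adjusted p = 0.00773), 1.21-fold lower, and 0.12 in LKO (SE 0.0888, adjusted p = 0.317). The changes differed by 0.39 (SE 0.12, 95% interval 0.15 to 0.64, adjusted p = 0.0476). Within slides this difference was -0.18, 0.56 and 0.55, and it was lost in 18 of 24 fits without an array, with adjusted p from 0.0218 to 0.0984. It passed only without LWT_Fasted replicate 1 or 2, LKO_Fed replicate 2 or 4, or LKO_Fasted replicate 2 or 4. A second Lpin3 probe was not above background on any array.

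**Figure D3:**
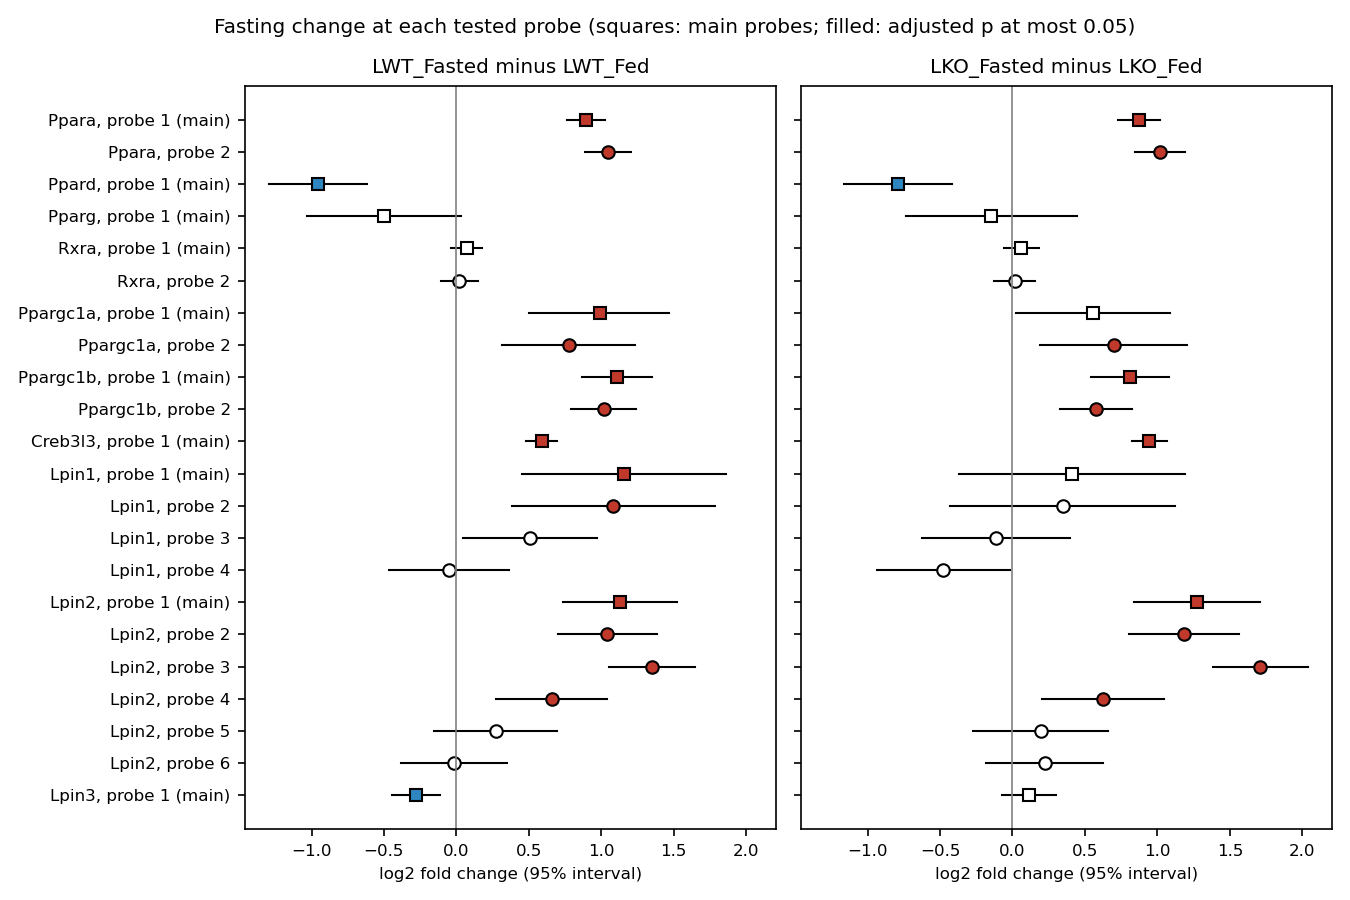
Fasting change (log2 fold change, 95% interval) at each of the 22 member probes that could be tested, in LWT (left) and LKO (right); squares are main probes, circles other probes, numbered by falling raw signal, and filled symbols passed at an adjusted p of at most 0.05. The Ppara and Ppargc1b probes lie together, while Lpin1 in LWT and Lpin2 in both panels hold both probes that rose and probes nearer to 0. In LKO no Lpin1 probe passed, with values from -0.48 to 0.41.

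Of 13 neighbours of the lipins in glycerolipid synthesis, 4 rose and 2 fell on fasting in LWT, and 4 rose and 1 fell in LKO, with medians of 0.03 and 0.12, so that the share passing was near the 41.5% of all genes in both. The acyltransferase genes Gpat3 and Gpam, which act at the first step of the pathway, moved apart in LWT: Gpat3 rose by 3.08 (adjusted p = 6.15e-11) and Gpam fell by 1.40 (adjusted p = 4.18e-07) on the log2 scale. In LKO Gpat3 rose by 4.32 (adjusted p = 1.4e-12), and Dgat2, which makes triglyceride from diacylglycerol, had the largest fall, 0.78 (adjusted p = 2.21e-07). Between fed genotypes 4 were lower in LKO, where 7.6% of all genes were, with Gpat3 at -0.96 (adjusted p = 0.00195). Between fasted genotypes Dgat2 was lower at -0.68 (adjusted p = 1.11e-05) and Agpat3, an acyltransferase gene of the second step, higher at 0.22 (adjusted p = 0.0475). The fasting change of Gpat3 was larger in LKO by 1.24 (adjusted p = 0.0106), the larger of 2 in the list.

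**Figure D4:**
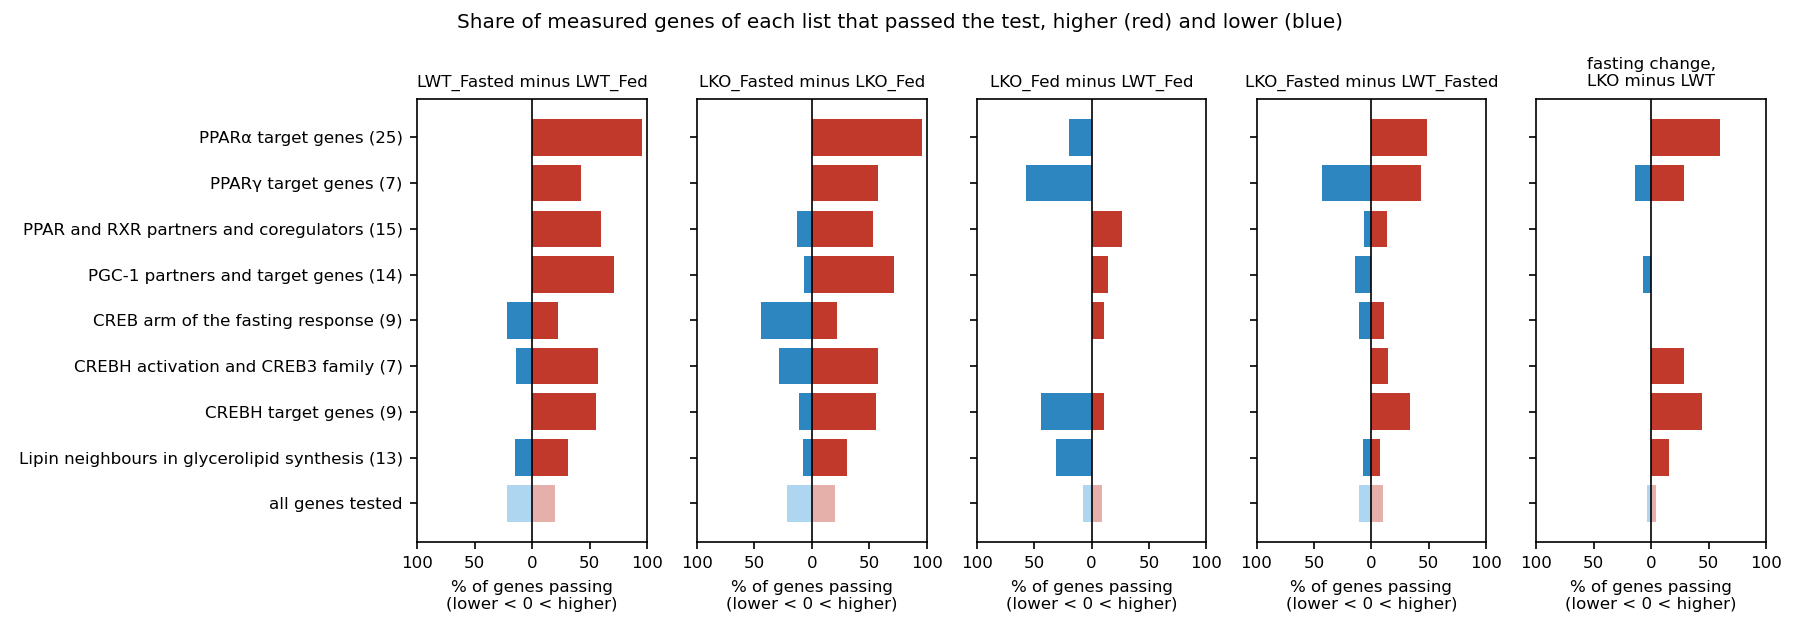
Share of the measured genes of each pathway list, with their number in parentheses, that passed at an adjusted p of at most 0.05, higher to the right (red) and lower to the left (blue), in each comparison; the bottom bar gives all genes tested. PPARα targets reach 24 of 25 genes in both fasting comparisons, and PPARγ targets 4 of 7 lower between fed genotypes.

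When the 4 groups were ordered by mean level, 7 of the 30 steps between neighbouring groups passed. The order came from the same data and no share over all genes was counted for such steps, so the count is a description. For Ppara the order was LKO_Fed, LWT_Fed, LKO_Fasted and LWT_Fasted, and for Ppargc1b it was LWT_Fed, LKO_Fed, LKO_Fasted and LWT_Fasted; only the step from fed to fasted groups passed in each, at 0.78 (adjusted p = 3.56e-09) for Ppara. For Ppard both fasted groups came first, followed by LKO_Fed and LWT_Fed, and the middle step passed at 0.72 (adjusted p = 0.00135). Creb3l3 was the member with 2 passing steps, from LKO_Fed to LWT_Fed and from LWT_Fed to LWT_Fasted. The single passing step of Lpin2 led from LWT_Fed to LWT_Fasted, as did that of Lpin1, which lay highest in LWT_Fasted. No step passed for Pparg, Rxra, Ppargc1a or Lpin3, although the test between the outermost groups of each passed. These outermost groups were picked by their means in the same data, and the adjusted p does not allow for that choice. Rxra passed in neither fasting comparison, in neither genotype comparison and not for the difference between fasting changes. For Pparg LKO_Fasted lay below LWT_Fed by -1.16 (SE 0.277, adjusted p = 0.00138), a call kept without any 1 array, with values of -1.32 to -0.95. For Ppargc1a and Lpin3 the outermost groups were LWT_Fed and LWT_Fasted, whose differences are given above. For Rxra LKO_Fasted lay above LWT_Fed by 0.15 (adjusted p = 0.0266). The Rxra difference lost the call without any one of LWT_Fed replicates 1 and 4 and LKO_Fasted replicates 1, 2 and 3, with values of 0.11 to 0.15 and adjusted p of 0.0517 to 0.111. It was also lost with the replicate block (0.13, adjusted p = 0.0847), with only the compared groups in the fit (0.15, adjusted p = 0.0981), without LKO_Fasted replicates 1 and 2 together (0.13, adjusted p = 0.11) and at the second probe (0.11, adjusted p = 0.193).

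The genes whose signal followed each member most closely over the 24 arrays are given as a description, since feeding state is shared by all points. Creb3l3 was followed by Etfdh (r = 0.985), Tlcd4 (0.981) and Ephx2 (0.98), with correlations of 0.785, 0.676 and 0.812 after each group's mean was removed. Ppara was followed by Acot12 (0.968, and 0.404 after removal), Tnfaip8l1 (0.958, 0.785) and Plin5 (0.957, 0.133), so that for Plin5 most of the likeness lay between groups. Ppargc1b was followed by Elmod3, Prox1 and Asic5 at 0.947, 0.939 and 0.937, and Lpin2 by Ccng2, Tcp11l2 and Klhl24 at 0.941, 0.928 and 0.923. Pparg was closest to Lgals1, which encodes galectin 1, at 0.93 and still at 0.884 within groups, ahead of Slc13a4 (0.899) and Akr1a1 (0.883). Ppard was closest to Birc3, Rab23 and Nes at 0.92, 0.913 and 0.911. Lower values were found for Ppargc1a, with Arl13b (0.855), Chic2 (0.839) and the nuclear receptor gene Rora (0.83), and for Lpin3, with Msrb2 (0.814), Eif2ak2 (0.791) and Nudt1 (0.773). Similar values were found for Lpin1, with Stard5 (0.792), the clock gene Per1 (0.784) and Cdip1 (0.778), and of Rxra, with Cyp7b1 (0.777), Mdm4 (0.773) and Psmc2 (0.768). Among the members themselves Ppara and Creb3l3 were the closest pair, at 0.942 and 0.46 within groups, and Ppargc1a and Lpin2, at 0.79, kept 0.639 within groups.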

How the data were processed

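Liver RNA of 24 mice was labelled with Cy3 and hybridised to Agilent SurePrint G3 Mouse GE 8x60K arrays. The authors deposited the spot intensity that Agilent Feature Extraction 10.10.1.1 read from each array (median, mean, local background and processed signal), with no scaling between arrays. The authors also deposited a table of log2 values, per the study's methods filtered, corrected for washing bath and quantile normalized, whose filter rule is not stated in the sources used here; it served as an alternative and, set against the values normalized here, had the same log2 scale with no centring: each array's median was 8.06, and over 31893 shared probes each array's values correlated at r = 1 after rounding. The washing bath of each array was not known here, and slide took its place.

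Groups came from the sample titles. Outlier spots were dropped, which left 90 probe values missing, spots of a probe were averaged, and a probe was kept if well above background on at least 5 of 6 arrays of a group. The log2 median signals of 32197 probes were quantile normalized and fitted with limma 3.58.1 in R 4.3.3 (group means, slide, array weights). P-values were adjusted over all these probes by Benjamini-Hochberg, and 7 comparisons were made: fasting in each genotype, genotype in each state, the difference between the fasting changes, and the 2 pairs of groups that differ in both. A fold change is from the weighted fit and can depart from a difference of the means plotted. Of 56605 probes outside controls, 32994 matched RefSeq by accession, 1535 with another symbol. The number of arrays limits the precision.

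The members and gene lists were chosen with earlier results of these data known. All members are named, as are the largest rise and fall that passed in each pathway list and main comparison, and the 3 genes most correlated with each member. Genes of the marker lists fall outside this rule, and a few are named beside a member's result. One gene that the rule names is not reported here. The fit was tested on simulated data. Replicate numbers marked different mice and did not pair them. Alternatives were other scalings, background corrections, filters and weights, slide and replicate blocks, and each array left out. Figures were drawn with matplotlib 3.10.9 in Python 3.11.15.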

Additional observations from a re-analysis of the deposited data

Results flagged for a closer look

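For 2 members the fasting change passed a test of the difference between genotypes, and neither call held under every alternative. That of Creb3l3 was larger in LKO than in LWT by 0.36 on the log2 scale, and that of Lpin3 was higher in LKO by 0.39, with a fall in LWT. The Creb3l3 difference did not pass without array weights (adjusted p = 0.0988) and was 0.003 on slide 1. The Lpin3 difference did not pass in 25 of 35 alternative fits, 18 of them among the 24 that left out an array, and was -0.18 on slide 1. No member's group of 6 mice held a sample set apart from the others by Dixon's criterion.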

How the results depend on the processing

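The 8 and 5 members that passed on fasting stayed within 8 to 9 and 5 to 6 when any 1 array was left out; the other counts ranged over 1 to 2 (fed genotypes), 0 to 1 (fasted genotypes) and 1 to 2 (difference between fasting changes), and 7 to 8 neighbouring steps passed. Between fed genotypes 1 member passed with processed signal, without array weights, and with a fold over 1.5. Between fasted genotypes 0 passed by limma with 75th percentile scaling, processed signal, no filter, the replicate block or only the compared groups, with 4, 3, 3, 3 and 2 at an unadjusted p under 0.05. For the difference between fasting changes 1 passed with processed signal, normexp, no filter, no slide term, slide as random block or the replicate block, and 0 without array weights (2 at an unadjusted p under 0.05) or with a fold over 1.5. With the replicate block the counts were 8, 5, 2, 0 and 1 and 7 steps passed; same-numbered arrays correlated at -0.172 to 0.295 and 2 of 24 lay closest to their own number, so the numbers do not pair the mice.

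Of 830 values under other alternatives, 799 kept direction and call and 11 turned direction. The Ppara difference between fasting changes was 0.016 with 75th percentile scaling. Rxra in LKO_Fed minus LWT_Fasted was -0.046 with that scaling and -0.067 with processed signal. Lpin1 in LKO_Fasted minus LWT_Fed was -0.049 without weights. Lpin2 between fasted genotypes was 0.035 (75th percentile), 0.045 (processed), 0.013 (normexp), 0.009 (no filter), 0.001 (above background on all 24 arrays), 0.006 (no weights) and 0.019 (replicate block). At other probes, Ppargc1a between fed genotypes was -0.081; Lpin1 was -0.051 for fasting in LWT, -0.113 and -0.478 in LKO, and -0.043, -0.118 and -0.612 in LKO_Fasted minus LWT_Fed; Lpin2 was -0.018 for fasting in LWT, 0.333, 0.246 and 0.086 between fed genotypes, 0.344, 0.302, 0.172, 0.039 and 0.231 between fasted genotypes, and -0.031 and -0.074 for the difference between fasting changes. With an array left out, values that crossed 0 ranged from -0.072 to 0.007 (Ppara) and -0.051 to 0.012 (Rxra) for the difference between fasting changes, -0.003 to 0.047 for Rxra in LKO_Fed minus LWT_Fasted, -0.024 to 0.176 for Ppargc1b between fed genotypes, and -0.1 to 0.248 for Lpin1 in LKO_Fasted minus LWT_Fed. Those of Lpin2 ranged from -0.285 to 0.1 between fed genotypes, -0.097 to 0.128 between fasted genotypes and -0.129 to 0.296 for the difference between fasting changes. The cause of these changes was not tested.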
